A study of Mus musculus with 10 samples.

Results

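The guanylyl cyclase necklace neurons are a small chemosensory population of the main olfactory epithelium (MOE) that carries neither TAARs nor odorant receptors, and 7 genes that mark or equip them were followed here: Gucy2d, Cnga3, Pde2a, Car2, Ms4a4b, Ms4a6c and Ms4a7. They were taken by symbol, by a rule that did not use their values, though earlier results of these data were known. All 7 had a row among the 24421 rows of the count table. The libraries came from whole MOE of mice at postnatal day 14, labelled as C57BL/6, while the study describes its mouse lines collectively as of mixed background. WT mice (3 libraries) had both alleles intact, het mice (3 libraries) carried 1 allele with TAAR enhancer 1 and TAAR enhancer 2 deleted together, and homo mice (4 libraries) carried the double deletion on both alleles. The deletions lie in the Taar gene cluster, which is on a chromosome that holds none of the 7 genes, and all mutant mice descended from a single established CRISPR line. Beyond the numbers in the titles the labels do not say which libraries came from which animals, so p-values measure the spread between these libraries.

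Necklace neurons take their name from the ring of glomeruli around the caudal olfactory bulb that their axons reach. In place of the cAMP cascade of other olfactory neurons they use cGMP: the receptor guanylyl cyclase GC-D, encoded by Gucy2d, makes cGMP, the channel subunit encoded by Cnga3 is opened by it, and the cGMP-stimulated phosphodiesterase encoded by Pde2a breaks it down. Carbonic anhydrase II, encoded by Car2, turns carbon dioxide into bicarbonate, which stimulates GC-D, and members of the MS4A family of membrane proteins act as chemoreceptors in the same cells. Several genes are also active elsewhere: Ms4a4b in T cells, Ms4a6c and Ms4a7 in macrophages, Pde2a in vessel cells and Car2 in many cell types. Whole-tissue RNA therefore does not read out necklace neurons alone.

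The genes lie at 5 sites in the mm10 annotation (GENCODE M21). Gucy2d spans chr7:98440416-98477479 on the plus strand, Cnga3 chr1:37214434-37263384 on the plus strand, Pde2a chr7:101421691-101512827 on the plus strand and Car2 chr3:14886273-14900770 on the plus strand. The MS4A genes share a cluster, with Ms4a7 at chr19:11321039-11336146 on the minus strand, Ms4a4b at chr19:11443553-11467055 on the plus strand and Ms4a6c at chr19:11469366-11482192 on the plus strand. Pde2a shares exon bases with the annotated same-strand gene Gm45837, and exons of Ms4a6c are overlapped by the antisense gene BE692007. Reads from the shared Pde2a bases cannot be assigned by strand, and since the strand setting of the counting was not given, those of Ms4a6c and its antisense partner cannot be told apart either. Ms4a4b and Ms4a4c, and Ms4a6b, Ms4a6c and Ms4a6d, are close paralogs, so counts of these single genes are uncertain as well.

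Promoters were taken from RefSeq (GRCm38.p6), which had an entry for 6 of the 7 genes and 12 start sites in all. The 250 bases upstream of each start were searched on both strands for CCCNNGGG, paired half-sites of the Ebf factors, and for TAATTA, the core that homeodomain factors bind. The windows shown are that of Gucy2d, the gene that defines these neurons, that of Ms4a4b, whose counts differed most between libraries, and that of Ms4a7, which held the only match. They lie at chr7:98440166-98440415 (plus strand), chr19:11443308-11443557 (plus strand) and chr19:11336147-11336396 (minus strand), run 5′ to 3′ toward the start, and have TAATTA in capitals.
Gucy2d: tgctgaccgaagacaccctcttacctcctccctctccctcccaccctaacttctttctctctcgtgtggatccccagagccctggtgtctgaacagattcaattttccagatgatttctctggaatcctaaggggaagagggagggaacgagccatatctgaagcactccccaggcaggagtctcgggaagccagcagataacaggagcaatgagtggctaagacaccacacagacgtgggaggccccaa
Ms4a4b: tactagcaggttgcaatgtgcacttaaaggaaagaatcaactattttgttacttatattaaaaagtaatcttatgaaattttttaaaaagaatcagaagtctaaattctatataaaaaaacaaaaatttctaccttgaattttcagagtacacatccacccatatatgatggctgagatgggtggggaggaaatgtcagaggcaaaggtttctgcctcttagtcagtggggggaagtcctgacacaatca
Ms4a7: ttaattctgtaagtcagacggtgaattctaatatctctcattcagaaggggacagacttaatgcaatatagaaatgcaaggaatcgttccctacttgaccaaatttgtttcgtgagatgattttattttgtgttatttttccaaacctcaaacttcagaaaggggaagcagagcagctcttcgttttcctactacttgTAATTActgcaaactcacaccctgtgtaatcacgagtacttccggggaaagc
CCCNNGGG was found in 0 of the 12 windows, while 11.8% of all 250-base upstream windows in the table held it. TAATTA was found once, in the Ms4a7 window, with its first base 52 bases upstream of the start, and 4.84% of all windows held it. A match here is a match of letters and says nothing about binding.

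Library totals lay between 21423861 and 27712948 counts, and levels are given as counts scaled to the library total (CPM). The Taar genes followed the labels. The summed level of the 14 olfactory Taar genes was 35.4 ± 1.29 CPM (SD, n = 3) among WT, 33.2 ± 2.78 (SD, n = 3) among het and 0.156 ± 0.0566 (SD, n = 4) among homo. Omp, the marker of mature olfactory neurons, stood at a mean of 4233 CPM, as the tissue label requires.

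The members covered a wide span of levels. Ordered by CPM per kilobase of merged exons, the means over the 10 libraries were 45.8 for Car2, 5.25 for Pde2a, 2.09 for Ms4a6c, 0.933 for Ms4a7, 0.911 for Gucy2d, 0.168 for Cnga3 and 0.0835 for Ms4a4b. Car2, Pde2a and Ms4a6c each lay above the next gene in this order in 10 of 10 libraries, with no overlap of their ranges. Ms4a7 and Gucy2d could not be ordered, since Ms4a7 was the higher in only 6 of 10 libraries. Gucy2d lay 5.43-fold above Cnga3 and above it in every library, whereas the ranges of Cnga3 and Ms4a4b overlapped. The place of the MS4A genes depended on the length used: over the longest coding transcript Ms4a7 had 2.64 CPM per kilobase and Ms4a6c 2.33, with overlapping ranges. Set against the parts of the canonical cAMP cascade per length, the cyclase, channel and phosphodiesterase stood at very different ratios. In WT, Cnga3 had 0.0652% ± 0.0113 (SD, n = 3) of the level of Cnga2, the channel subunit of canonical olfactory neurons. Gucy2d had 0.691% ± 0.218 (SD, n = 3) of the level of Adcy3, their adenylyl cyclase. Pde2a had 34.0% ± 5.37 (SD, n = 3) of the level of Pde1c, a phosphodiesterase of their cilia, a ratio that depended on the merged exon lengths. It takes in Pde2a from all cells of the tissue, and the part of necklace neurons was not tested. By plain CPM the WT means were 32.1 for Pde2a and 309.2 for Pde1c. The corresponding het and homo ratios were 0.0550% ± 0.0354 and 0.0654% ± 0.0174 for the channels, 0.599% ± 0.184 and 0.801% ± 0.220 for the cyclases, and 31.0% ± 6.00 and 34.9% ± 4.75 for the phosphodiesterases (SD, n = 3 and 4), each mean within 1 SD of that of WT.

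**Figure D1:**
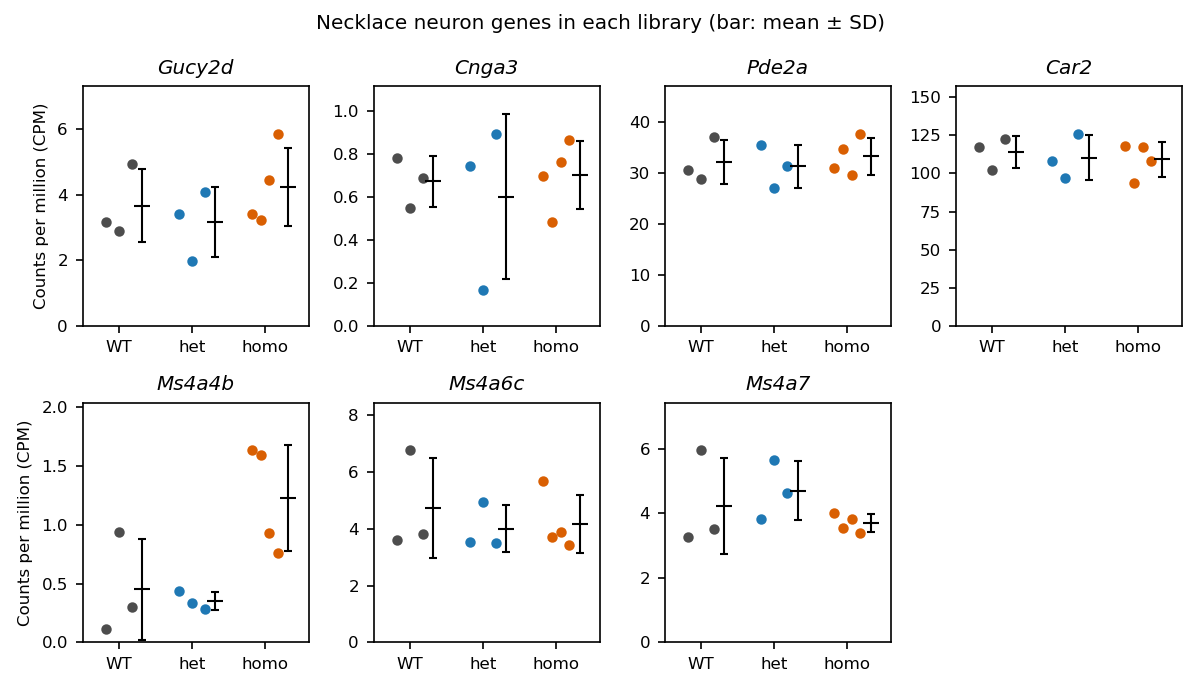
CPM of the 7 genes in each of the 10 libraries, by genotype (1 point per library, the horizontal mark and bar are the mean and SD, n = 3, 3 and 4, and each axis starts at 0). Ms4a4b is the only gene whose homo libraries, between 0.758 and 1.63 CPM, lie above all het libraries.

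The test of genotype asked whether loss of the TAAR enhancers touched a chemosensory system that has no Taar genes. With edgeR's quasi-likelihood test, 0 of the 7 members passed an adjusted p of 0.05 in any contrast, and DESeq2 and limma also called 0. The background was low as well: of the 17197 genes tested, 0.0698% were called in homo compared with WT, 0% in het compared with WT, 0.0756% when homo was set against het, and 0.0698% over all 3 genotypes. At an unadjusted p under 0.05 the members gave 1 gene in homo compared with WT (2.41% of all genes), 0 in het compared with WT (1.92%), 1 when homo was set against het (2.48%) and 1 over all 3 genotypes (1.98%). In each case the gene was Ms4a4b. Libraries of homo and WT were fully separated for 0 members (3.55% of all genes), those of het and WT for 0 (5.22%) and those of homo and het for 1 (3.93%). The median log2 fold change of the members was 0.05 when homo was compared with WT, -0.16 when het was compared with WT, and 0.09 when homo was set against het, where the median of all genes was 0.000118, -0.000883 and -0.000974. All 7 passed the filter on low counts, but Ms4a4b did so through the homo group: its level exceeded the filter's 0.422 CPM in 4 homo, 1 WT and 1 het libraries.

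**Figure D2:**
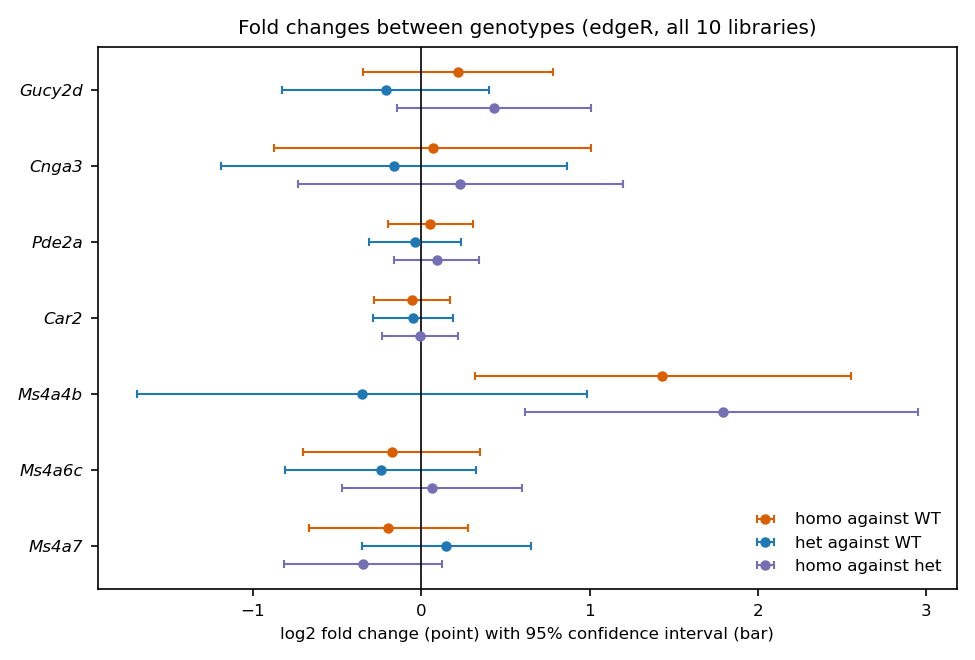
Log2 fold changes of the 7 genes (points) with 95% confidence intervals (bars) for each pair of genotypes, from edgeR's fit to all 10 libraries. Intervals are narrowest for Car2 and Pde2a and widest for Cnga3 and Ms4a4b, and only those of Ms4a4b for homo against WT (0.32 to 2.55) and homo against het (0.62 to 2.95) lie apart from 0, without adjustment for the number of genes.

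Gucy2d, the receptor cyclase that makes cGMP, had 85, 74 and 114 counts in WT, 78, 47 and 100 in het and 73, 73, 105 and 162 in homo. The groups overlapped throughout, with the highest level in homo replicate 4 and the lowest in het replicate 2, a 2.96-fold span. Its level was 3.67 ± 1.10 CPM (SD, n = 3) among WT, 3.16 ± 1.07 (SD, n = 3) among het and 4.23 ± 1.20 (SD, n = 4) among homo. The log2 fold change for homo against WT was 0.22 ± 0.27 (SE, edgeR adjusted p = 1), with a 95% interval of 0.786-fold to 1.72-fold. For homo against het it was 0.43 ± 0.27 (SE, edgeR adjusted p = 0.999), and for het against WT -0.21 ± 0.29 (SE, edgeR adjusted p = 1). Replicates spread more than counting alone gives: the coefficient of variation was 30.1% in WT, where sampling of reads would give 10.5%.

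Cnga3, the cGMP-gated channel subunit, was near the lower end of what this depth resolves. It had 21, 14 and 16 counts in WT, 17, 4 and 22 in het and 15, 11, 18 and 24 in homo. All 3 groups overlapped, and het replicate 2, which also had the lowest Gucy2d level, stood lowest with 0.168 CPM. The level was 0.675 ± 0.120 CPM (SD, n = 3) among WT, 0.603 ± 0.384 (SD, n = 3) among het and 0.704 ± 0.160 (SD, n = 4) among homo. The log2 fold change for homo against WT was 0.07 ± 0.45 (SE, edgeR adjusted p = 1), and its 95% interval ran from 0.546-fold to 2.02-fold. That interval carries no adjustment for the number of genes, and the smallest change detectable at this depth was not tested. On the log2 scale the difference was -0.16 ± 0.49 in het relative to WT and 0.23 ± 0.46 in homo relative to het (SE, edgeR adjusted p = 1 and 0.999). In WT and homo its coefficients of variation, 17.7% and 22.8%, were no larger than the 24.3% that counting gives in each, but in het it was 63.7% where counting gives 26.4%.

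Pde2a, the phosphodiesterase that cGMP itself stimulates, had 819, 736 and 854 counts in WT, 809, 644 and 769 in het and 662, 785, 698 and 1042 in homo. The ranges of the 3 groups overlapped, and the highest library was only 1.39-fold above the lowest. The level was 32.1 ± 4.27 CPM (SD, n = 3) among WT, 31.3 ± 4.20 (SD, n = 3) among het and 33.2 ± 3.66 (SD, n = 4) among homo. For homo against WT the log2 fold change was 0.05 ± 0.12 (SE, edgeR adjusted p = 1), and the 95% interval was 0.871-fold to 1.24-fold. It was -0.04 ± 0.13 in het relative to WT and 0.09 ± 0.12 in homo relative to het (SE, edgeR adjusted p = 1 and 0.999).

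Car2, which supplies bicarbonate to GC-D and is found in many other cells, had 3146, 2608 and 2829 counts in WT, 2462, 2302 and 3096 in het and 2523, 2119, 2775 and 2994 in homo. The groups overlapped, and the highest library was 1.34-fold above the lowest, the smallest span of the 7 members. Its level was 113.9 ± 10.6 CPM (SD, n = 3) among WT, 110.2 ± 14.7 (SD, n = 3) among het and 109.2 ± 11.3 (SD, n = 4) among homo. In homo against WT the log2 fold change was -0.06 ± 0.11 (SE, edgeR adjusted p = 1), with a 95% interval of 0.824-fold to 1.12-fold. For homo against het it was -0.01 ± 0.11 (SE, edgeR adjusted p = 0.999), with an interval of 0.852-fold to 1.16-fold, and for het against WT -0.05 ± 0.11 (SE, edgeR adjusted p = 1).

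Ms4a4b, an MS4A protein of necklace neurons that T cells also make, had 3, 24 and 7 counts in WT, 10, 8 and 7 in het and 35, 36, 22 and 21 in homo. Every homo library lay above every het library, and above WT replicates 1 and 3, but WT replicate 2 lay within the homo range. The level was 0.451 ± 0.433 CPM (SD, n = 3) among WT, 0.353 ± 0.0784 (SD, n = 3) among het and 1.23 ± 0.450 (SD, n = 4) among homo. The log2 fold change was 1.43 ± 0.53 (SE, edgeR adjusted p = 1) for homo against WT and 1.79 ± 0.55 (SE, edgeR adjusted p = 0.999) for homo against het. Neither passed the test across all genes, nor did het against WT, at -0.35 ± 0.63 (SE, edgeR adjusted p = 1). The first value was 2.57 without WT replicate 2 (edgeR adjusted p = 0.519) but 0.96 without WT replicate 1 and 1.22 without WT replicate 3 (edgeR adjusted p = 1 for both), and in these last cases the unadjusted p was above 0.05 as well. Leaving out any other library gave 1.26 to 1.62, and over all alternatives the adjusted p lay between 0.519 and 1 for homo against WT and between 0.613 and 1 for homo against het.

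Ms4a6c, an MS4A gene that macrophages also express, had 97, 173 and 88 counts in WT, 81, 118 and 86 in het and 122, 84, 92 and 95 in homo. WT replicate 2 was the highest library, and the other 2 WT libraries lay among those of het and homo. The level was 4.73 ± 1.76 CPM (SD, n = 3) among WT, 4.004 ± 0.830 (SD, n = 3) among het and 4.18 ± 1.03 (SD, n = 4) among homo. The log2 fold change for homo against WT was -0.18 ± 0.25 (SE, edgeR adjusted p = 1), with a 95% interval of 0.614-fold to 1.28-fold. It was -0.24 ± 0.27 in het relative to WT and 0.065 ± 0.25 in homo relative to het (SE, edgeR adjusted p = 1 and 0.999).

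Ms4a7, the third MS4A gene and likewise active in macrophages, had 87, 152 and 81 counts in WT, 87, 134 and 114 in het and 86, 80, 90 and 94 in homo. WT replicate 2 was again the highest, and homo libraries were close together, with a coefficient of variation of 7.53% where counting alone gives 10.7%. The level was 4.23 ± 1.49 CPM (SD, n = 3) among WT, 4.70 ± 0.911 (SD, n = 3) among het and 3.69 ± 0.278 (SD, n = 4) among homo. The log2 fold change was -0.20 ± 0.22 for homo against WT and -0.34 ± 0.22 for homo against het (SE, edgeR adjusted p = 1 and 0.999), and 0.15 ± 0.24 for het against WT (SE, edgeR adjusted p = 1). The groups overlapped in each of these comparisons. In bulk tissue, for these genes as for all members, fewer cells and less RNA per cell cannot be told apart.

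Members were then compared with the summed levels of cell type markers over the 10 libraries, on a log2 scale of TMM-scaled CPM, since the same genes are active in other cells. Of 49 pairs of a member and a marker list, 2 passed a permutation test after Benjamini-Hochberg adjustment and 4 did so without it. Ms4a4b varied with the 9 T cell markers (Pearson's r = 0.86, permutation p = 0.00139, adjusted p = 0.0341, and Spearman's rho = 0.915, permutation p = 0.00045, adjusted p = 0.022). Without WT replicate 2 and homo replicate 2, the libraries farthest from the median of the marker sum, r was 0.87, and over deviations from the genotype means it was 0.944. Car2 varied with the 13 genes of the canonical olfactory cascade (r = 0.928, permutation p = 0.00049, adjusted p = 0.024, and rho = 0.842, permutation p = 0.00362, adjusted p = 0.0887). Its r was 0.876 without het replicate 3 and homo replicate 2 and 0.941 within genotypes. Ms4a6c and the 12 myeloid markers gave r = 0.801 (permutation p = 0.00564, adjusted p = 0.0921) and rho = 0.721 (permutation p = 0.0235, adjusted p = 0.384), and r fell to 0.632 without WT replicates 2 and 3. Within genotypes its r was 0.793 (permutation p = 0.00193, adjusted p = 0.0315), so that it joined the pairs that passed there. That test takes the 10 deviations as independent, which they are not, so that its p-values can be too small. Over the 8 remaining libraries 0 of the 49 pairs passed after adjustment, with exact permutation p of 0.0059 for Ms4a4b and T cell markers and 0.0136 for Car2 and the olfactory cascade, each at an adjusted p of 0.222. Ms4a7 and endothelial markers gave r = -0.676 (permutation p = 0.0316, adjusted p = 0.387), with rho = -0.60 (permutation p = 0.072, adjusted p = 0.542), and r was -0.179 without the 2 libraries farthest from the median, so that this relation rested on them.

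**Figure D3:**
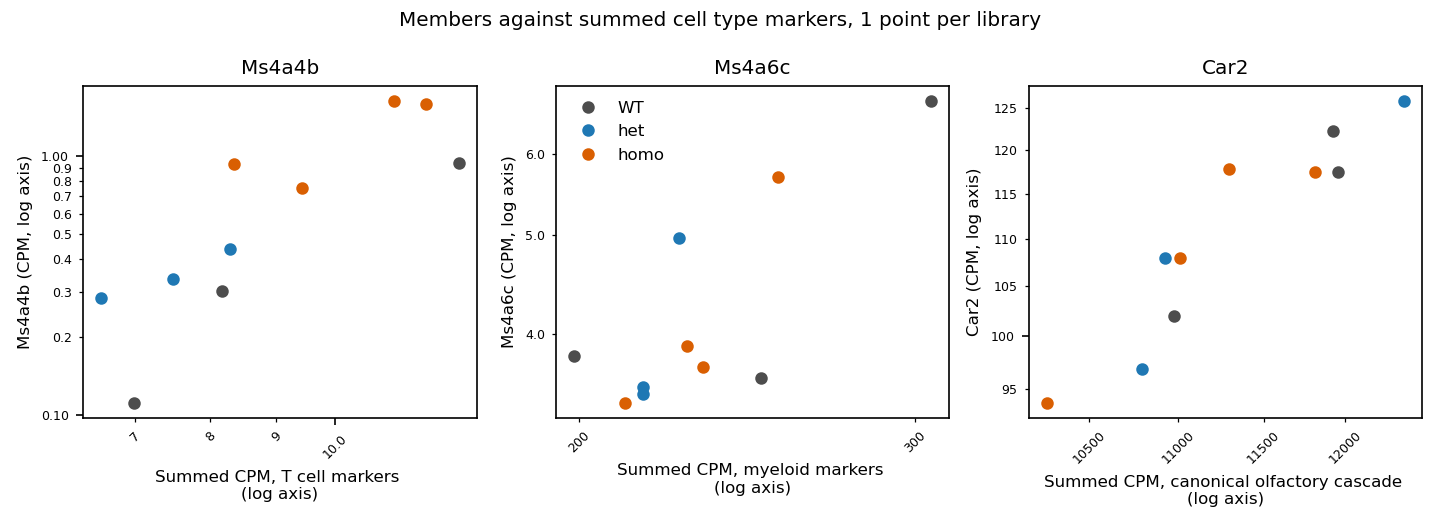
Ms4a4b against summed T cell markers, Ms4a6c against summed myeloid markers and Car2 against the summed canonical olfactory cascade, all in CPM on log axes, with 1 point per library and colors for genotype. For Ms4a4b, homo replicate 3, at 8.34 CPM of T cell markers, lies above het replicate 1 and WT replicate 3, at 8.29 and 8.17. Homo replicates 1 and 2, at 11.1 and 11.8, have no het library near that level. They lie above WT replicate 2, the nearest WT library, at 12.5. Homo replicate 4, at 9.42 CPM of T cell markers, has no het or WT library close to that level. This reading was made after the values were seen and carries no test. Car2 rises along the olfactory sum with the genotypes mixed.

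The summed T cell markers, like Ms4a4b, were higher in every homo library than in every het library and overlapped between homo and WT. None of the 9 genes was at 0 across the libraries, and their sum was 6.99 to 12.5 CPM over the WT libraries, 6.59 to 8.29 over the het and 8.34 to 11.8 over the homo libraries. Of the 8 tested, 0 passed an adjusted p of 0.05 in edgeR, and 7 had higher and 1 lower fitted values in homo than in WT, with a median log2 fold change of 0.11. For homo against het the median was 0.83, and an unadjusted p below 0.05 was found for 3 (2.48% of all genes). Among them was Cd3d, a chain of the T cell receptor complex (log2 fold change 2.52 ± 0.66, SE, edgeR adjusted p = 0.999). Cd3d had only 1 to 3 counts in het libraries, and its mean was 0.51 CPM in both WT and homo. Cd2, an adhesion receptor of T cells, had -1.44 ± 0.59 for het against WT (SE, edgeR adjusted p = 1), and Cd247 and Lck were the most abundant of the list, at 2.08 and 1.86 CPM. Per 100 counts of T cell markers, Ms4a4b had 1.6, 7.52 and 3.7 in WT, 5.29, 4.49 and 4.32 in het and 14.7, 13.5, 11.2 and 8.05 in homo libraries. These ratios were 4.28 ± 3.0 (SD, n = 3), 4.70 ± 0.517 (SD, n = 3) and 11.9 ± 2.94 (SD, n = 4), with homo replicate 4 close to WT replicate 2. The Ms4a4b counts behind them were 3 to 24 in WT and 7 to 10 in het, and the gene passed the filter through the homo group. This ratio was formed after the values had been seen, carries no test, and the part of T cells in the Ms4a4b level was not tested. B cell markers lay between 4.19 and 5.53 CPM in WT, 1.89 and 4.31 in het and 3.07 and 10.9 in homo, with r = 0.573 against Ms4a4b (permutation p = 0.0837, adjusted p = 0.443, and rho = 0.552, permutation p = 0.106, adjusted p = 0.542) and r = 0.386 without homo replicate 2 and het replicate 2. Cd79b, a part of the B cell receptor complex, had a log2 fold change of 1.28 ± 0.44 for homo against het (SE, edgeR adjusted p = 0.999).

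**Figure D4:**
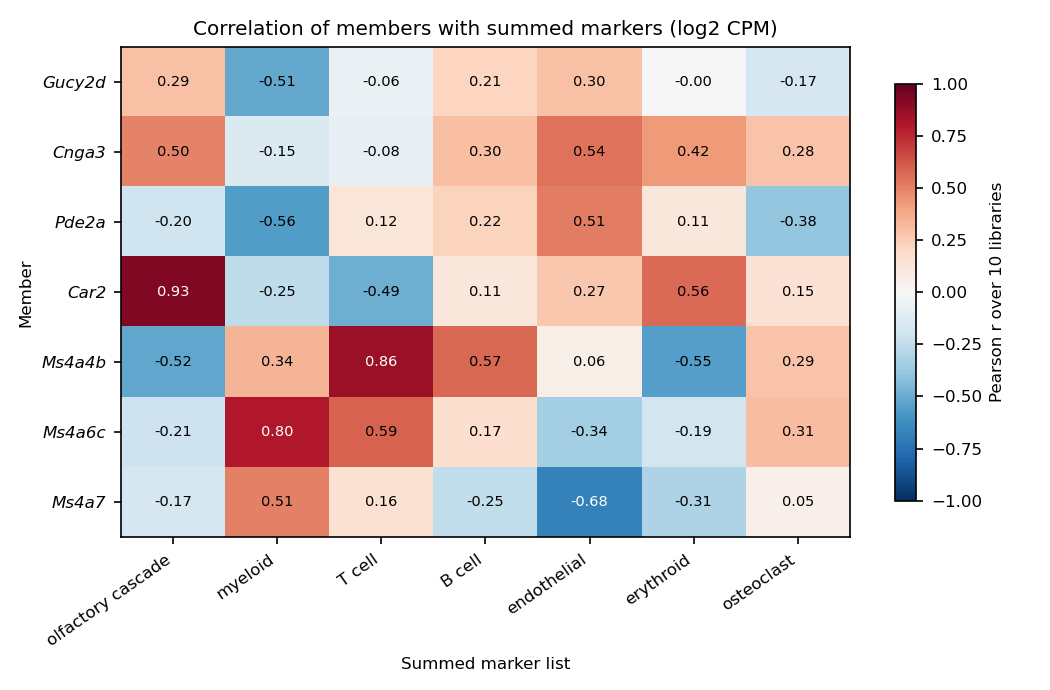
Pearson's r over the 10 libraries between each member (rows) and each summed marker list (columns), from log2 TMM-scaled CPM, on a color scale from -1 to 1. The 2 pairs that passed the adjusted permutation test are Car2 with the olfactory cascade (0.93) and Ms4a4b with T cell markers (0.86).

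Among the members, 0 of 21 pairs passed a permutation test after adjustment and 6 had an unadjusted p under 0.05. Over deviations from the genotype means 2 pairs passed after adjustment, with p-values that can be too small, as above. The strongest over all libraries was that of the cyclase and its channel, Gucy2d and Cnga3 (r = 0.796, permutation p = 0.00569, adjusted p = 0.096, and rho = 0.588, permutation p = 0.0805, adjusted p = 0.254). Within genotypes it was 0.783 (permutation p = 0.00388, adjusted p = 0.0407), and 0.517 without het replicate 2 and homo replicate 2. Ms4a6c and Ms4a7 gave r = 0.732 (permutation p = 0.0213, adjusted p = 0.112) and rho = 0.564 (permutation p = 0.0967, adjusted p = 0.254), and r was 0.893 within genotypes (permutation p = 0.00036, adjusted p = 0.00756) but 0.278 without WT replicate 2 and het replicate 2. By contrast, Ms4a7 ran opposite to Pde2a, with r = -0.737 (permutation p = 0.0147, adjusted p = 0.103) and rho = -0.60 (permutation p = 0.074, adjusted p = 0.254), and r was -0.44 without those same libraries.

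Of the 17196 other genes tested, those most like each member over the 10 libraries were genes with no tie to the rule that chose the members, named here by r alone. For Gucy2d they were Ranbp3 (0.954), Fbxl19 (0.951) and Cln6 (0.939), for Cnga3 Men1 (0.98), Leo1 (0.972) and Ctbp1 (0.954), and for Pde2a Gpr4 (0.979), Hsf1 (0.976) and Cherp (0.97). Car2 was most like Tmed10 (0.983), Mrpl44 (0.973) and Cisd3 (0.969). Among the MS4A genes, Ms4a4b was most like B3galnt1 (0.935), Grik3 (0.899) and Olfr127 (0.891), Ms4a6c most like Cul3 (0.906), Luzp2 (0.902) and Cbfb (0.898), and Ms4a7 most like Suz12 (0.972), Eif5a2 (0.97) and Trim59 (0.961). The number of genes over r = 0.9 was 94 for Car2, 61 for Cnga3, 44 for Pde2a, 27 each for Gucy2d and Ms4a7, 2 for Ms4a6c and 1 for Ms4a4b. Each r rests on the same 10 libraries. For Cnga3, with 4 counts in het replicate 2, Spearman's rho was lower, at 0.867 for Men1, 0.915 for Leo1 and 0.733 for Ctbp1.

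The relatives of the members were counted in the same fit, and 0 genes of any list passed an adjusted p of 0.05 in any contrast. Of 13 other MS4A genes with a row, 4 were tested, and 1 had an unadjusted p under 0.05: Ms4a1, which encodes the B cell antigen CD20 (homo against het, log2 fold change 1.04 ± 0.46, SE; edgeR adjusted p = 0.999). Ms4a6b and Ms4a6d were the most abundant of them, at 2.99 and 2.36 CPM, and Ms4a6d had a log2 fold change of -0.56 ± 0.27 for homo against WT (SE, edgeR adjusted p = 1). Ms4a4c, the neighbour and close paralog of Ms4a4b, had 8 to 24 counts in WT, 15 to 22 in het and 58, 19, 13 and 10 in homo. Its highest library was homo replicate 1, while homo replicates 2 to 4 lay within the range of the other groups or, for replicate 4, at their lower end.

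Of 18 other cyclases and peptides of their pathways with a row, 13 were tested, and an unadjusted p under 0.05 was found for 1 in homo compared with WT, 0 in het compared with WT and 2 when homo was set against het. The peptides guanylin and uroguanylin, which activate GC-D, were not detectable at this depth beyond 1 count of Guca2a in homo replicate 3, with 0 counts of Guca2b in all 10 libraries. Npr2, a natriuretic peptide receptor cyclase with 30.5 CPM, had a log2 fold change of 0.31 ± 0.11 for homo against het (SE, edgeR adjusted p = 0.999). Gucy2c, the gut receptor of the same peptides, had 6.95 CPM and 0.48 ± 0.18 for homo against WT (SE, edgeR adjusted p = 1), and Gucy1a3, a subunit of the soluble cyclase, had 14.3 CPM. Of 18 cGMP channels, phosphodiesterases and kinases tested, 0 had an unadjusted p under 0.05. Cnga2 (843.8 CPM) and Pde1c (316.7 CPM) were the most abundant, and Pde6g and Pde10a had the smallest p, with log2 fold changes of 1.11 ± 0.55 and 0.44 ± 0.25 for het against WT (SE, edgeR adjusted p = 1 for both).

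Car2 was the most abundant carbonic anhydrase by mean CPM, ahead of Car6 (66.9 CPM), the secreted enzyme, and Car3 (45.01 CPM). This order did not hold in every library, since Car6 reached 3716 counts in a homo library and Car2 at most 2994 in homo. Of 14 other carbonic anhydrases tested, 1 had an unadjusted p under 0.05 in homo against WT, Car12 (log2 fold change 0.37 ± 0.13, SE; edgeR adjusted p = 1). Car6 spread from 639 to 3716 counts between libraries and had 1.13 ± 0.58 for homo against WT (SE, edgeR adjusted p = 1). Of the 13 genes of the canonical olfactory cascade, 0 had an unadjusted p under 0.05, and Omp had -0.12 ± 0.11 for homo against WT (SE, edgeR adjusted p = 1). Gnal, which encodes the olfactory G protein, was the next most abundant at 1691 CPM, and Rtp2 and Gng13 had the smallest p of the list, with -0.11 ± 0.09 and -0.32 ± 0.27 for homo against WT (SE, edgeR adjusted p = 1 for both).

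Markers of the remaining cell types are given for the tissue that the members share. Myeloid markers summed to between 198.7 and 306.1 CPM in WT, 215.9 and 225.7 in het and 211.4 and 254.4 in homo. The highest sum was that of WT replicate 2, the library with the highest Ms4a6c and Ms4a7 levels, and the part of myeloid cells in those levels was not tested. Lyz2 and Csf1r were the most abundant of the 12, at 90.7 and 37.9 CPM, and Itgam and C1qb had the smallest p, with log2 fold changes of -0.68 ± 0.18 and -0.36 ± 0.13 for het against WT (SE, edgeR adjusted p = 1 for both). Osteoclast markers, of interest for Car2, summed to 448.2 to 694.1 CPM in WT, 520.3 to 674.7 in het and 543.2 to 752.3 in homo, and r against Car2 was 0.147 (permutation p = 0.681, adjusted p = 0.814, and rho = 0.103, permutation p = 0.784, adjusted p = 0.915), and 0.433 without WT replicate 3 and homo replicate 3. Ctsk and Acp5 led this list at 262.7 and 224.3 CPM, and Mmp9 and Calcr had 0.22 ± 0.16 and 0.58 ± 0.46 for homo against het (log2 fold change, SE, edgeR adjusted p = 0.999 for both). Endothelial markers, of interest for Pde2a, summed to 108.3 to 136.1 CPM in WT, 102.2 to 124.3 in het and 108.1 to 132.7 in homo, and r against Pde2a was 0.509 (permutation p = 0.135, adjusted p = 0.443, and rho = 0.455, permutation p = 0.193, adjusted p = 0.673), and 0.0275 without het replicate 2 and WT replicate 2. Pecam1 and Cdh5 were the most abundant at 29.0 and 19.8 CPM, and Emcn and Egfl7 had 0.28 ± 0.15 and 0.23 ± 0.15 for homo against WT (log2 fold change, SE, edgeR adjusted p = 1 for both). Erythroid markers summed to 16.1 to 38.6 CPM in WT, 15.0 to 36.9 in het and 12.0 to 25.4 in homo, but 4 of the 8, the defining hemoglobin genes Hba-a1, Hba-a2, Hbb-bs and Hbb-bt, were listed at 0 in all libraries, so that the sum rests on the other 4, Alas2 and Klf1 among them. Alas2 was the most abundant at 17.1 CPM, and Klf1 had a log2 fold change of -1.08 ± 0.43 for homo against het (SE, edgeR adjusted p = 0.999).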

How the data were processed

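Whole MOE RNA was sequenced by the authors from directional, poly(A)-selected libraries, and per the labels reads were trimmed (Trimmomatic 0.36), aligned to mm10 (HISAT2 2.1.0) and turned into raw counts per gene with featureCounts (Subread 1.6.2). The annotation, strand setting and treatment of multiply aligned reads were not given in the sources used here. The deposited normalized signal table, in which the authors divided each count by a size factor per library, served only as an alternative.

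Groups and replicate numbers came from the sample titles, and every column had a sample. Genes were kept by filterByExpr (minimum count 10, minimum total 15), which left 17197 genes with 99.97% of the counts, scaled by TMM and fitted with edgeR 4.0.16 (R 4.3.3; robust quasi-likelihood F tests, two-sided, 10 libraries, genotype as the only term), with Benjamini-Hochberg adjustment over all genes tested and a threshold of 0.05. The script was tested on simulated data. DESeq2 1.42.0 and limma 3.58.1 (log2 of the normalized value plus 1) were alternatives, along with other scaling, filters, a replicate block and leaving out each library. Correlations used two-sided permutation tests with 100000 resamples, and those within genotypes permuted the 10 deviations from the genotype means without restriction. Deviations that share a genotype mean are not independent, so that the p-values within genotypes can be too small. Lengths and positions came from GENCODE M21. Same-numbered WT and het libraries deviated together (r = 0.326, 0.285 and 0.235 over genes for numbers 1 to 3), so that numbers may pair them. The main fit did not use this pairing, which entered only the replicate blocks. Homo libraries showed no such pairing (-0.148 to 0.159). Named genes were the 7 members, from every other list the 2 highest by mean CPM, the 2 of smallest p and any called gene, and the 3 genes most like each member. Some genes that this rule names are not reported here. Members and lists were chosen with earlier results of these data known.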

Additional observations from a re-analysis of the deposited data

How the results depend on the processing

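Of 356 recomputed member fold changes, 331 kept their sign and none of the 356 gained or lost a call, since 0 members were called under every setting tried. The other 25 changed sign, and the cause was not tested. Sign changes with all libraries kept were -0.0542 for Cnga3 (homo against WT) and 0.011 for Car2 (homo against het) under the replicate block, and 0.0645 for Ms4a4b (het against WT) with limma on the normalized table. With 1 library omitted at a time, the log2 fold change for homo against WT ran over -0.0671 to 0.195 (Cnga3), -0.0236 to 0.16 (Pde2a), -0.369 to 0.17 (Ms4a6c) and -0.359 to 0.128 (Ms4a7). Against WT, het values ran from -0.428 to 0.0461 (Gucy2d), -0.559 to 0.275 (Cnga3), -0.14 to 0.0669 (Pde2a), -0.145 to 0.0324 (Car2), -0.822 to 0.784 (Ms4a4b), -0.431 to 0.11 (Ms4a6c) and -0.00914 to 0.477 (Ms4a7). Homo against het ran from -0.204 to 0.63 (Cnga3), -0.0857 to 0.0912 (Car2) and -0.128 to 0.255 (Ms4a6c). The replicate block, in which homo replicate 4 has no partner, raised the genes called among all genes from 12 to 19 (homo against WT), 13 to 24 (homo against het) and 12 to 22 (any genotype), and a block in WT and het alone, added after the pairing was seen, gave 3 genes in place of 0. None of these was a member. The 2 adjusted correlations with markers became 3 over deviations from the genotype means, with Ms4a6c and myeloid markers added by p-values that can be too small. They became 0 over the 8 libraries left without those farthest from the median, where fewer libraries were tested. A minimum mean CPM of 1 removed Cnga3 and Ms4a4b, so no value exists for them there. The lowest member counts, 3 for Ms4a4b and 4 for Cnga3, limit what this depth can show for both.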
